A study of Homo sapiens with 6 samples.

Results

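Cells detect viral and misplaced RNA through a small set of receptors and adaptors, and 10 genes of this system were described here: DDX58 (RIG-I), IFIH1 (MDA5), DHX58 (LGP2), MAVS, TLR3, TICAM1 (TRIF), MYD88, TRIM25, ZNFX1 and DDX60. They were chosen by name, were found once each among the 57820 genes of the deposited table, and all passed the filter on low counts that left 15605 tested genes. The libraries came from M14, a human melanoma cell line that carries a doxycycline-inducible short hairpin RNA against STAG2, a subunit of the cohesin complex that shapes DNA loops. The 3 STAG2-KD libraries came from cells given doxycycline for 5 days, and the 3 WT libraries from the same cells grown without it. Both groups carried the hairpin construct and were kept in puromycin, so "WT" names cells in which the hairpin was not induced. No library of cells that received doxycycline without the STAG2 hairpin was analysed here, so the drug and the knockdown cannot be told apart. The comparison asks which parts of the RNA sensing machinery differed in transcript level when STAG2 was depleted.

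As background, RIG-I and MDA5 are helicases that bind double-stranded RNA in the cytosol and, once bound, assemble MAVS on the mitochondrial surface into filaments that recruit the kinases and transcription factors for type I and type III interferon genes. TLR3 senses double-stranded RNA in endosomes and signals through TRIF, whereas MyD88 serves most other Toll-like receptors and the interleukin-1 receptors. Many of the sensors are themselves interferon-stimulated genes, and their promoters often carry paired GAAA elements that bind interferon regulatory factors and the ISGF3 complex.

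The stretches of promoter shown here cover the 7 genes in which a searched motif was found. They let the reader see paired GAAA elements or, in TICAM1 alone, the NF-kB form GGGANNTTCC. The promoters are those of RefSeq on GRCh38.p14, each with 250 bases before and 50 after the gene's start, and the table held 8 of the 10 genes. Each line runs 5′ to 3′ on the strand of the gene, and the opening letters give flanking sequence. Capitals mark the GAAA pairs or, in TICAM1, the NF-kB form, and matches to other motifs are not marked. The windows are, on the minus strand, DDX58 at chr9:32526366-32526424, IFIH1 at chr2:162318685-162318730, TICAM1 at chr19:4831798-4831857, TRIM25 at chr17:56914044-56914077 and DDX60 at chr4:168318771-168318865, and, on the plus strand, TLR3 at chr4:186069127-186069161 and MYD88 at chr3:38138575-38138634.
DDX58: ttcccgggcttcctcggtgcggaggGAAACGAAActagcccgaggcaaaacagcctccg
IFIH1: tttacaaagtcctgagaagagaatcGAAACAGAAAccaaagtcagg
TLR3: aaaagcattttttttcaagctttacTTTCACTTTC
TICAM1: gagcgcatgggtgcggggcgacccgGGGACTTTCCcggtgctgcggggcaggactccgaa
MYD88: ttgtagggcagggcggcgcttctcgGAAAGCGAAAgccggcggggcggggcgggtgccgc
TRIM25: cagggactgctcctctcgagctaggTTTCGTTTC
DDX60: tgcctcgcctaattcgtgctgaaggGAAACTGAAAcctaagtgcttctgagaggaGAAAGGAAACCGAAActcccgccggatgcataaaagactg

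A pair of GAAA elements, spelled GAAANGAAA or GAAANNGAAA and read on both strands, was found in 6 of the 8 promoters. In TLR3 and TRIM25 the pair lay on the opposite strand, so it reads as TTTC in the letters shown, and it ran across the transcription start. DDX60 held 3 pairs, those nearest the start overlapping each other, and IFIH1 held 3, one shown and an overlapping couple further upstream. Of all 35116 promoters of the table, 6.40% held either form, 3.12% the form with 1 base between the elements and 3.57% the form with 2. The NF-kB form GGGANNTTCC, present in 1.61% of all promoters, was found in TICAM1, DDX58 and IFIH1, and in TICAM1 it was the only match. The form TTCNNNGAA bound by STAT dimers, which reads the same on both strands and occurred in 7.66% of all promoters, was found in TLR3, MYD88 and DDX60. MAVS held none of these letters in its window, and DHX58 and ZNFX1 were not in the table. The motifs were chosen after the promoters had been seen, and a match describes letters, not binding.

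**Figure D1:**
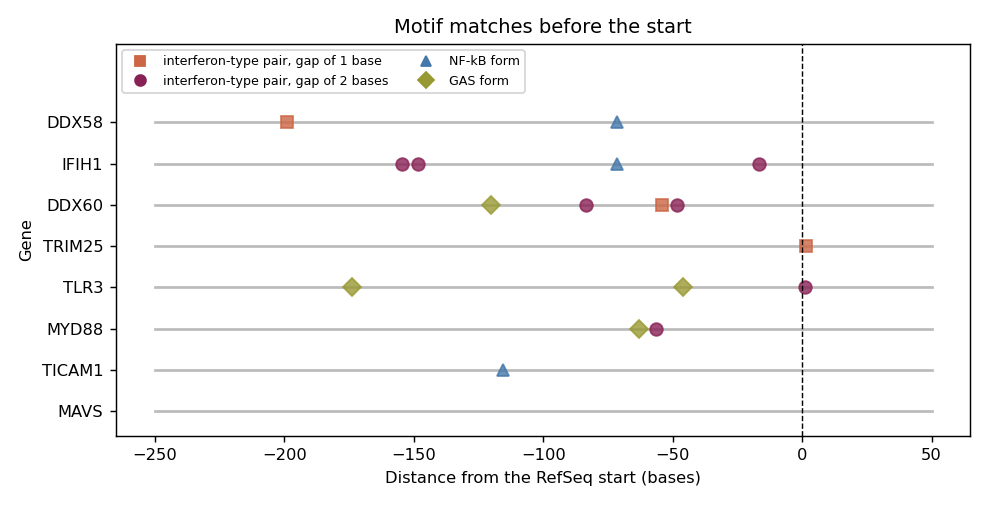
Position of each motif match in the 8 promoters, with the distance from the RefSeq start in bases on the x axis and the gene on the y axis; squares and circles are pairs with 1 or 2 bases between the elements, triangles the NF-kB form and diamonds the TTCNNNGAA form (GAS). The pairs of TLR3 and TRIM25 span the start, and the MAVS line carries no mark.

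The libraries held between 24895998 and 35181733 expected counts, and a floor of 3 counts was worth 0.0853 to 0.121 CPM, counts scaled to a common library size, which covers counting error only because the reads carry no molecular identifiers. STAG2 itself, the check of the labels, was at 66.5, 34.8 and 28.8 CPM in WT and at 16.0, 7.31 and 6.69 CPM in STAG2-KD, and fell by 2.12 on the log2 scale (SE 0.43, edgeR adjusted p = 0.0342). That call was lost without WT replicate 2 (edgeR adjusted p = 0.0757), WT replicate 3 (0.0652), STAG2-KD replicate 2 (0.168) or STAG2-KD replicate 3 (0.152), while the log2 change stayed between -2.63 and -1.68. It was also lost with all libraries kept when scaling used library totals only (edgeR adjusted p = 0.0591). The STAG2 call held in 10 of 15 alternatives, among them the replicate block (edgeR adjusted p = 0.000104). The 8 melanocyte markers were all tested, their summed level ran from 1861 to 6311 CPM in WT and from 1195 to 2606 CPM in STAG2-KD, and S100B was the 1 called lower. With the replicate number as a block 6 of them were called lower: SOX10, MLANA, PMEL, DCT, TYRP1 and S100B. TYR went the other way, from a mean of 216 to 276 CPM, and was called neither with nor without the block. Of 9 leukocyte markers, whose sums were 93.3 to 283.4 CPM in WT and 199.4 to 243.6 CPM in STAG2-KD, CD68 was called higher, CD3E was at 0 in all libraries and PTPRC was at 0 in all but WT replicate 3. None of 6 fibroblast markers (4.78 to 93.6 CPM in WT, 3.49 to 23.4 CPM in STAG2-KD) or 6 keratinocyte markers (28.9 to 45.6 and 18.4 to 27.6 CPM) was called by edgeR without the block, and with it COL1A1 was called lower. The part of these cell type markers in the results was not tested. Mitochondrial transcripts made up 5.08% of WT replicate 1 and 2.12% to 2.94% of every other library. The study describes its replicates as biologically independent samples, and the labels do not name a culture for each, so p-values measure the spread between these libraries.

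The 3 cytosolic receptors, the RNA-binding helicase ZNFX1 and the ubiquitin ligase TRIM25 rose upon STAG2 knockdown, whereas MAVS, the adaptor downstream of the receptors, had nearly the same mean in both groups. In all, 5 of the 10 genes were called higher at an edgeR adjusted p under 0.05 and 0 were called lower, against 1.75% and 0.839% of the 15605 tested genes. At an unadjusted p under 0.05, 9 of the 10 were higher, against 7.77% of all genes, and 0 were lower, against 6.98%. DESeq2 called 6 higher and 0 lower, against 3.51% and 2.77%, and limma-voom called 5 higher and 0 lower, against 1.76% and 0.878%. With the replicate number as a block, 8 were called higher, against 5.10% of all genes, and 0 lower, against 4.42%. The block pairs libraries of the same number, which the fit without it does not. In 9 of the 10, every STAG2-KD library lay above every WT library, which held for 11.8% of all genes. For a single gene, such a separation of 3 against 3 gives an exact two-sided permutation p of 0.1, the smallest this design allows. The median log2 fold change was 1.76 over the 10 genes and -0.026 over all tested genes. These are bulk libraries, in which more cells expressing a gene and more transcript per cell cannot be told apart.

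**Figure D2:**
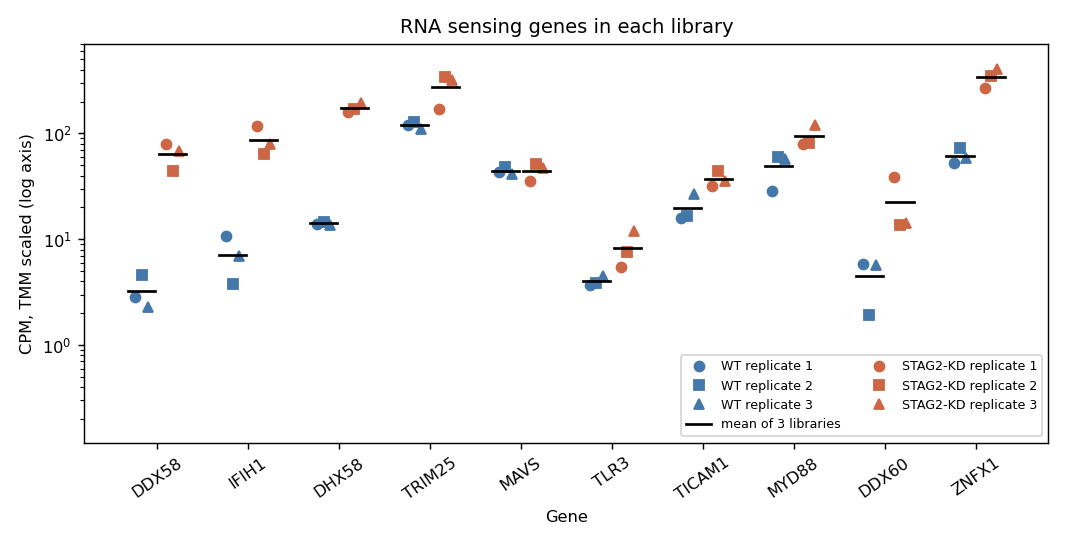
CPM of each gene in each library on a log axis, with WT in blue, STAG2-KD in red, one symbol shape per replicate number and a bar at the mean of 3 libraries. The groups overlap for MAVS and are apart for the other 9 genes, most widely for DDX58, IFIH1 and DHX58.

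DDX58, which encodes RIG-I, the receptor for short RNA with a 5′ triphosphate end, lies on the minus strand of chromosome 9 at chr9:32455300-32526206 (GRCh37) with 18 exons in its canonical transcript. Its transcript stood at 2.87, 4.61 and 2.29 CPM where the hairpin was not induced (WT) and at 79.1, 44.3 and 68.0 CPM where it was (STAG2-KD). Every library with the hairpin induced was thus far above every one without it, although the WT values rest on only 77, 159 and 63 reads. The mean rose from 3.26 ± 1.21 to 63.8 ± 17.8 CPM (SD, n = 3), a log2 fold change of 4.28 (SE 0.36, 95% interval 3.49 to 5.08, edgeR adjusted p = 0.000236). This was the largest fold change of the 10 genes. An exon of DDX58 overlaps a second annotated gene on the same strand, which the count table does not list.

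IFIH1 encodes MDA5, the receptor for long double-stranded RNA, and lies at chr2:163123584-163175194 on the minus strand with 16 exons. Its level was 10.6, 3.77 and 6.92 CPM in WT and 117, 64.6 and 79.5 CPM in STAG2-KD. Even the lowest induced library was several times higher than the highest uninduced one. The mean rose from 7.10 ± 3.43 to 87.2 ± 27.2 CPM, a log2 fold change of 3.62 (SE 0.40, 95% interval 2.73 to 4.51, edgeR adjusted p = 0.00132). DDX58 was highest in the WT library in which IFIH1 was lowest, WT replicate 2, so the 2 receptors did not order the uninduced libraries alike.

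DHX58 encodes LGP2, a helicase that binds RNA but lacks the signalling domains of the other receptors and modulates MDA5 and RIG-I, and it lies at chr17:40253422-40264732 on the minus strand with 14 exons. It gave the tightest values of the receptors, at 13.97, 14.6 and 13.8 CPM in WT and 158.9, 170.5 and 195.8 CPM in STAG2-KD. Its spread within each group was small beside the gap between the groups. The mean rose from 14.1 ± 0.415 to 175 ± 18.9 CPM, a log2 fold change of 3.63 (SE 0.20, 95% interval 3.19 to 4.07), with an edgeR adjusted p of 2.08e-05.

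Per kilobase of canonical transcript, the only scale on which the receptors were compared with each other, DHX58 made up most of their summed level in every library. Its share was 60.1%, 73.3% and 68.6% in WT and 55.1%, 70.5% and 67.2% in STAG2-KD, and the ranges overlapped. IFIH1 took 13.7% to 33.0% in WT and 19.3% to 29.5% in STAG2-KD. DDX58 took 6.91%, 13.0% and 6.40% in WT and 15.4%, 10.2% and 13.1% in STAG2-KD. Between libraries of the same replicate number, the share of DHX58 was lower in STAG2-KD in all 3 pairs, and that of DDX58 was higher in the first and the third pair and lower in the second. RIG-I was the least abundant transcript of the 3 in both groups by mean level.

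TRIM25, the ubiquitin ligase that promotes RIG-I signalling, lies at chr17:54913748-54991441 on the minus strand with 9 exons. It was at 120.5, 129 and 111 CPM in WT and 170.4, 339.8 and 318 CPM in STAG2-KD. STAG2-KD replicate 1 stood well below the other induced libraries but above all WT libraries. The mean went from 120.2 ± 8.93 to 276 ± 92.1 CPM, a log2 fold change of 1.20 (SE 0.26, 95% interval 0.61 to 1.79, edgeR adjusted p = 0.0486). The call was lost without WT replicate 1 (edgeR adjusted p = 0.0702), WT replicate 2 (0.140), WT replicate 3 (0.200), STAG2-KD replicate 2 (0.200) or STAG2-KD replicate 3 (0.239), and was kept without STAG2-KD replicate 1 (0.0104). The call held in 10 of 15 alternatives, among them the replicate block (edgeR adjusted p = 0.0061). TRIM25 shares exon bases with C17orf67 on its own strand, whose mean went from 28.7 to 73.7 expected counts, and with DGKE on the other.

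MAVS, the mitochondrial adaptor on which RIG-I and MDA5 converge, lies at chr20:3827446-3856770 on the plus strand with 7 exons. It was at 42.8, 48.4 and 41.4 CPM in WT and at 35.7, 50.9 and 46.9 CPM in STAG2-KD. The groups overlapped, and the highest and the lowest value were both from induced libraries. The means were 44.2 ± 3.69 and 44.5 ± 7.88 CPM, and the log2 fold change was 0.01 (SE 0.21, edgeR adjusted p = 0.991), with a sign that flipped between settings. Some of its expected counts were not whole numbers, since reads shared with other genes were divided. The 95% interval of -0.46 to 0.48, which is 0.728-fold to 1.39-fold, bounds the change of this transcript between the groups.

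TLR3, the endosomal receptor for double-stranded RNA, lies at chr4:186990065-187009227 on the plus strand with 5 exons. Its level was low, at 3.69, 3.87 and 4.50 CPM in WT and 5.47, 7.53 and 12.1 CPM in STAG2-KD. All induced libraries were above all uninduced ones, but the gap between the closest of them was small. The log2 fold change was 1.05 (SE 0.41, 95% interval 0.13 to 1.98, edgeR adjusted p = 0.266), and the gene passed the threshold in 0 of 15 alternatives, in which the adjusted p ran from 0.125 to 0.717.

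TICAM1 encodes TRIF, the adaptor through which TLR3 signals, and lies at chr19:4815944-4831724 on the minus strand with 2 exons. It was at 15.8, 16.6 and 26.9 CPM in WT and 31.7, 43.9 and 35.2 CPM in STAG2-KD. The groups did not overlap, with WT replicate 3 closest to the induced libraries. The log2 fold change was 0.90 (SE 0.27, 95% interval 0.29 to 1.51) with an edgeR adjusted p of 0.142, and with the replicate block the adjusted p was 0.0287.

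MYD88, the adaptor of most Toll-like receptors but not of TLR3, lies at chr3:38180043-38184515 on the plus strand with 5 exons. It was at 28.3, 60.1 and 57.7 CPM in WT and 80.0, 81.8 and 121.1 CPM in STAG2-KD. WT replicate 1 stood below the other uninduced libraries, and the groups did not overlap. The log2 fold change was 0.95 (SE 0.30, 95% interval 0.27 to 1.63) with an edgeR adjusted p of 0.163, and with the replicate block the adjusted p was 0.0133. TLR3, TICAM1 and MYD88 thus had fold changes close to each other, and none was called by edgeR with the low-count filter and without the block. Without that filter TICAM1 and MYD88 passed (edgeR adjusted p = 0.0355 and 0.00273).

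ZNFX1 encodes a zinc finger helicase that binds double-stranded RNA and acts with MAVS, and lies at chr20:47854483-47894963 on the minus strand with 14 exons. It was at 52.7, 72.5 and 58.8 CPM in WT and at 268, 345 and 407 CPM in STAG2-KD. All induced libraries were far above the uninduced ones. The mean rose from 61.3 ± 10.1 to 340.4 ± 69.6 CPM, a log2 fold change of 2.47 (SE 0.23, 95% interval 1.95 to 2.99, edgeR adjusted p = 0.000559). Its exons overlap DDX27 and the noncoding ZFAS1 on the opposite strand, whose means went from 3649 to 4119 and from 1607 to 2392 expected counts, and the strand setting of the counting was not given in the sources used here.

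DDX60, an interferon-inducible helicase reported to assist RIG-I signalling, lies at chr4:169137442-169240034 on the minus strand with 38 exons. It was at 5.85, 1.91 and 5.75 CPM in WT and at 39.0, 13.7 and 14.3 CPM in STAG2-KD. STAG2-KD replicate 1 was well above the other induced libraries, and the groups did not overlap. The means were 4.51 ± 2.24 and 22.3 ± 14.4 CPM, with a log2 fold change of 2.31 (SE 0.55, 95% interval 1.09 to 3.53) and an edgeR adjusted p of 0.0628. It passed in 4 of 15 alternatives, among them the replicate block (edgeR adjusted p = 0.00242), and leaving out single libraries moved the log2 value between 1.64 and 2.56.

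The order of the STAG2-KD libraries differed between genes. STAG2-KD replicate 1 held the most STAG2 transcript of the induced libraries, as WT replicate 1 did of the uninduced ones. STAG2-KD replicate 1 was the highest of the 3 for DDX58, IFIH1 and DDX60 and the lowest for the other 7 genes. DDX58, IFIH1, DHX58 and ZNFX1 nevertheless passed the threshold in each of 15 alternatives, with log2 fold changes over single left-out libraries of 4.08 to 4.62, 3.31 to 4.02, 3.53 to 3.70 and 2.31 to 2.62.

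**Figure D3:**
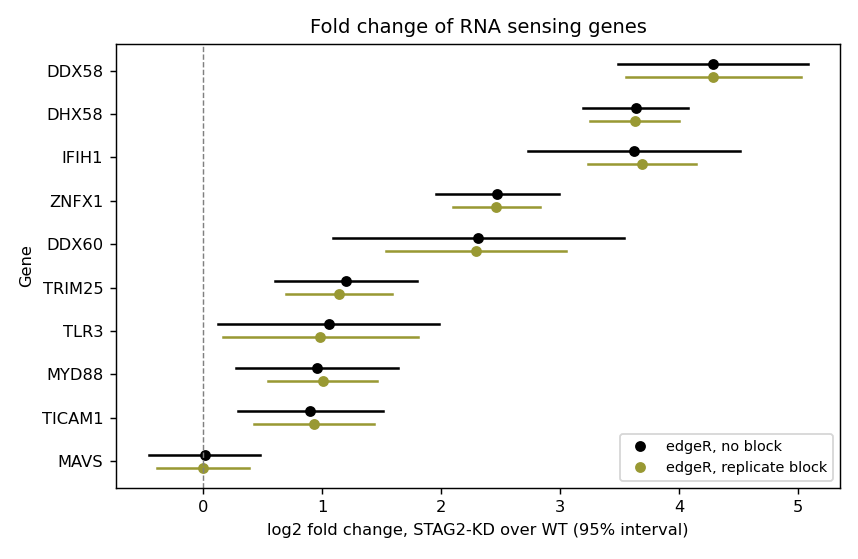
Log2 fold change of STAG2-KD over WT on the x axis for each gene on the y axis, with the 95% interval as a line, in black for edgeR without and in olive for edgeR with the replicate block. MAVS lies at 0, TLR3, MYD88, TICAM1 and TRIM25 lie near 1, and DDX58 is the farthest right at 4.28.

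The order of the transcripts by level per kilobase also changed. In WT, TRIM25 was first at 20.9 CPM per kilobase, followed by MYD88 at 18.3, ZNFX1 at 8.51, TICAM1 at 7.38, DHX58 at 5.44, MAVS at 3.77 and IFIH1 at 1.98, while DDX60, DDX58 and TLR3 closed the order at 0.749, 0.704 and 0.668. The library ranges overlapped between TRIM25 and MYD88, between ZNFX1 and TICAM1, and between DDX60, DDX58 and TLR3 in turn, so these neighbours did not differ beyond their spread. In STAG2-KD, DHX58 was first at 67.6, TRIM25 and ZNFX1 followed at 48.1 and 47.2, then came MYD88 at 35.4, IFIH1 at 24.3, and DDX58 and TICAM1 at 13.8 each. MAVS at 3.79, DDX60 at 3.71 and TLR3 at 1.39 were last. In STAG2-KD the ranges overlapped between each neighbouring pair from TRIM25 to IFIH1, between DDX58 and TICAM1, and between MAVS and DDX60. IFIH1 and DDX58, below MAVS in WT, were above it in STAG2-KD, and MAVS went from 6th to 8th. Counting all annotated exon bases instead of the canonical transcript, a choice made after the data had been seen, changed the order. In WT it put MYD88 ahead of TRIM25, TICAM1 ahead of ZNFX1, MAVS ahead of DHX58, and TLR3 ahead of DDX58 and DDX60. In STAG2-KD it left DHX58 first at 45.8 CPM per kilobase and put ZNFX1 and MYD88 ahead of TRIM25. DDX58 at 6.17 was then below TICAM1 at 13.8 in STAG2-KD.

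**Figure D4:**
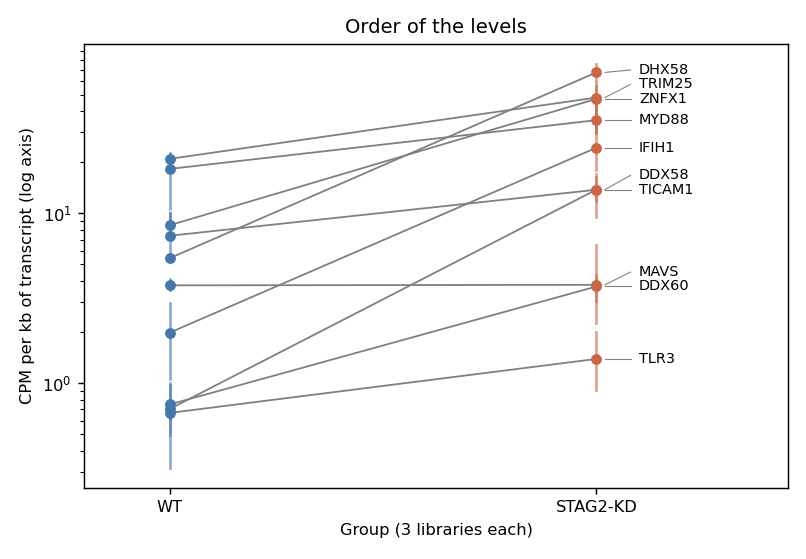
Mean CPM per kilobase of canonical transcript on a log axis for WT (blue) and STAG2-KD (red), with the range over 3 libraries as a vertical line and a grey line joining each gene. DHX58 goes from 5th to 1st place, and MAVS has the same level in both groups within its range.

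Most other genes of the pathway, in 5 lists of 101 genes of which 87 were tested, did not pass the test. In edgeR 6 of the 87 (6.90%) were higher and 0 were lower, against 1.75% and 0.839% of all tested genes. Of these, IFNL1 was at 0 in all WT libraries and passed the low-count filter only through STAG2-KD, which leaves 5. At an unadjusted p under 0.05, 18 were higher and 6 lower, against 7.77% and 6.98% of all genes, with 13 and 1 by DESeq2 (3.51% and 2.77%) and 7 and 0 by limma-voom (1.76% and 0.878%). The counts at an unadjusted p, by DESeq2 and by limma-voom also include IFNL1. With the replicate block 13 were higher, 12 without IFNL1, adding RIPK1, UNC93B1, TRIM4, NLRX1, SMURF1, MOV10 and CCL5. PPP1CA, DHX9 and DDX39A were the 3 lower with the block. With IFNL1 included, that makes 14.9% and 3.45% of the 87 against 5.10% and 4.42% of all genes. The median log2 fold change was 0.093 without IFNL1. Of the 27 genes of the signal relay, which pass the signal from MAVS and TRIF to gene activation, IRF7 alone was called. IRF7, the interferon-inducible transcription factor for interferon genes, was at 14.2, 20.6 and 19.4 CPM in WT and 187.1, 180.9 and 221.9 CPM in STAG2-KD, and rose by 3.44 on the log2 scale (SE 0.23, edgeR adjusted p = 5.21e-05). The kinases TBK1 and IKBKE, the ubiquitin ligase TRAF3 and the transcription factor IRF3 were not called. The median log2 fold change of the relay was 0.22.

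None of 10 tested genes among 19 Toll-like receptors and their kinases was called by edgeR, with 3 higher and 0 lower at an unadjusted p under 0.05, 1 higher by DESeq2 and 0 by limma-voom. The open point at 4.17 in the plot of the pathway lists is TLR9, which rests on 3, 0 and 0 expected counts in WT (edgeR adjusted p = 0.351). Among 26 regulators of the receptors, 2 rose. NLRC5, an activator of MHC class I genes that also binds RIG-I and MDA5, was at 15.0, 20.1 and 22.6 CPM in WT and 99.2, 115 and 162.5 CPM in STAG2-KD, a log2 fold change of 2.70 (SE 0.26, edgeR adjusted p = 0.000645). ZC3HAV1, the antiviral zinc finger protein ZAP, went from a mean of 41.9 to 138.4 CPM, a log2 fold change of 1.72 (SE 0.20, edgeR adjusted p = 0.00183). The other 24 regulators, among them the RIG-I ubiquitin ligase RNF135 and the deubiquitinase CYLD, were not called, and the median of the list was 0.11. Among 22 other helicases 2 rose, both interferon-inducible. HELZ2, a nuclear receptor coactivator, was at 71.1, 102.9 and 77.4 CPM in WT and 856, 1109 and 1178 CPM in STAG2-KD, a log2 fold change of 3.64 (SE 0.25, edgeR adjusted p = 6.39e-05). DDX60L, the paralog of DDX60, was at 5.66, 3.51 and 6.41 CPM in WT and at 23.9, 19.9 and 29.3 CPM in STAG2-KD, a log2 fold change of 2.23 (SE 0.33, edgeR adjusted p = 0.00717). The median of these helicases was -0.13.

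**Figure D5:**
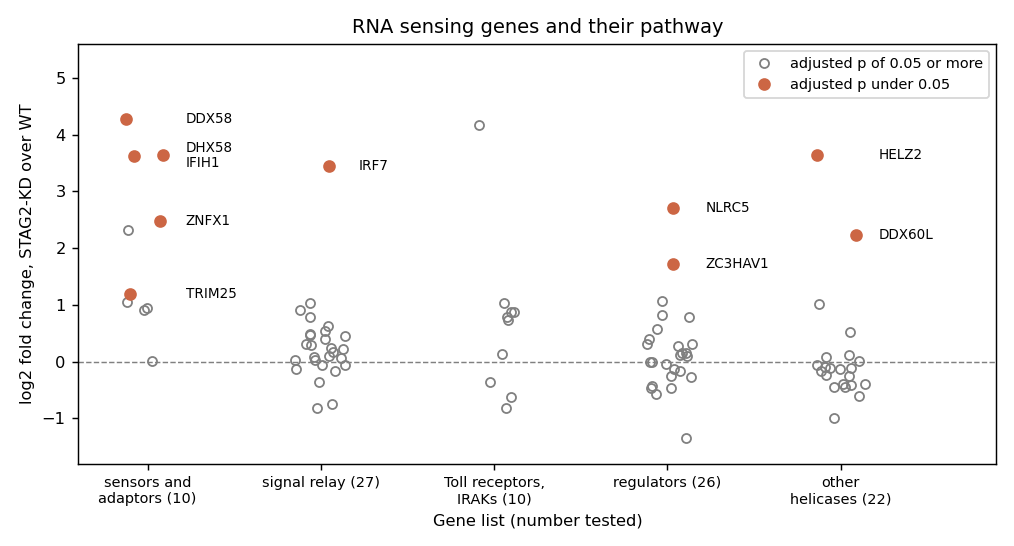
Log2 fold change of STAG2-KD over WT for the tested genes of the sensors and adaptors and of 4 pathway lists, with filled points at an adjusted p under 0.05 and open points otherwise. Called genes are named, most of the other points lie between -1 and 1, and the genes of the output list are not drawn.

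Of the 7 genes that RNA sensing is known to switch on, IFNL1, a type III interferon, was listed at 0 in all WT libraries and held 199, 262 and 347 expected counts in the STAG2-KD libraries (8.56 ± 2.23 CPM), and no test is given for a gene with reads in STAG2-KD only. IFNL2 and IFNL3, near-identical copies among which reads may be divided, were at 0 in WT and held 94, 0 and 12 and 0, 10 and 0 counts in STAG2-KD. IFNB1, the type I interferon of this pathway, was at 0 in all 6 libraries, which allows at most 0.121 CPM in the shallowest. CCL5, a chemokine, was at 4.45, 24.1 and 23.1 CPM in WT and 78.4, 57.0 and 53.7 CPM in STAG2-KD, with a log2 fold change of 1.87 and an edgeR adjusted p of 0.106 (0.0243 with the replicate block). DESeq2 and limma-voom also called CCL5 higher. The chemokines CXCL10 and CXCL11 were at 0 in WT, held 0, 0 and 10 and 23, 0 and 4 counts in STAG2-KD, and were too low to be tested.

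By the correlation of log2 CPM over the 6 libraries, the genes most like DDX58 were PLEKHA4, IFIT1 and IFIT3 (Pearson r 0.9996, 0.998 and 0.995), those most like IFIH1 were EIF2AK2, HLA-G and PRAME (0.996, 0.996 and 0.995), and those most like DHX58 were IFNL1, TREM1 and HSH2D (0.9997, 0.999 and 0.999). The points fall into 2 groups, WT and STAG2-KD, so these values are a description that mainly reflects genes far apart between the groups. IFNL1 was at 0 in all WT libraries and passed the low-count filter only through STAG2-KD, so its value with DHX58 rests on that gap. No gene was among the 3 most like more than 1 receptor, but the values given lay between 0.995 and 0.9997, so this sets no receptor apart.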

How the data were processed

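Total RNA of 6 M14 libraries was poly(A)-selected and sequenced from directional libraries. The authors deposited expected counts per gene, not scaled or filtered, which the submitters' processing notes credit to STAR and RSEM on hg19. Reads that fit more than one gene were shared out by RSEM, so the counts of ZNFX1, TLR3 and MAVS, which are not all whole, are less certain. The strand setting of the counting was not given in the sources used here. All 6 value columns were used and 0 were left out. The shallowest library held 24895998 and the deepest 35181733 expected counts.

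Counts were rounded, filtered with filterByExpr, scaled by TMM and tested in R 4.3.3 with edgeR 4.0.16 (quasi-likelihood test, STAG2-KD against WT, Benjamini-Hochberg adjustment over 15605 genes, threshold 0.05). Levels are TMM-scaled CPM. Values are means ± SD of 3 libraries and intervals are 95%. The code was tested on simulated data. Alternatives were DESeq2 1.42.0, limma-voom (limma 3.58.1), upper-quartile scaling, library totals, no filter, at least 10 counts in every library, unrounded counts, an adjusted p under 0.01, a replicate block, each library left out in turn and both replicate 1 libraries left out. After group means were removed, libraries with the same replicate number correlated at 0.629, 0.506 and 0.413 over 7407 genes. Libraries with unlike numbers ran from -0.578 to 0.306, the highest being WT replicate 2 with STAG2-KD replicate 3. The same-number values were the higher ones, so the numbers were read as pairing the samples. Calls of the main fit leave this pairing out, because that fit has no block. Counts with the block are given for the sensors and adaptors and for the pathway genes. This pairing comes from the data, since the labels give only the numbers.

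The genes, lists and tests were chosen with earlier results of these data known. Named genes are the 10 sensors and adaptors, STAG2, the 8 largest rises and 8 largest falls with a mean of at least 1 CPM among called pathway genes (6 rose and 0 fell), the output genes, and the 3 genes most like each receptor. Any other gene was named after its values were seen. Gene positions and transcript lengths come from GENCODE on GRCh37, matched by Ensembl identifier, and promoters from RefSeq on GRCh38.p14, matched by symbol (8 of 10). Motifs were searched in Python 3.11.15. Protein sequences were not used here.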

Additional observations from a re-analysis of the deposited data

How the results depend on the processing

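The number of genes called, 404 of 15605 without a block, was 1486 with the replicate block, 979 with DESeq2, 1103 without a filter on low counts, 757 without both libraries of replicate 1, 137 at an adjusted p under 0.01, and 121 to 531 with single libraries left out. Of the 10 sensors and adaptors, 5 were called, 8 with the replicate block and 8 without the filter, which added TICAM1, MYD88 and DDX60 in both cases, and 4 or 5 with single libraries left out. The block changed the call of no other of these 10 genes. Of the pathway genes 6 were called, against 16 with the replicate block, 14 with DESeq2, 13 without the filter and 12 without both libraries of replicate 1. The 6, the 16 and the 14 include IFNL1, which had reads in STAG2-KD only. Whether the 13 and the 12 include it is not given here.

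The log2 fold change of MAVS, 0.01, turned to -0.0085 with limma-voom, -0.023 with upper-quartile scaling and -0.0022 with the replicate block, and ran from -0.10 to 0.15 with single libraries left out. Over 165 recomputed fold changes of the 10 genes and STAG2, 140 kept their direction and side of the threshold, 10 lost the call, 8 gained it and these 7 of MAVS changed sign. The causes were not tested. Scaling moved the median of all genes by little, from -0.026 to -0.058 at most. TLR3, DDX58 and DDX60 had few reads in WT, and the part of depth in their results was not tested.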
